A study of Mus musculus with 4 samples.

Results

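Nuclear receptors other than the bile acid sensors were examined as a set of 34 mouse genes, given as a fixed list of gene symbols. The measurement was open chromatin (ATAC, in which a transposase cuts accessible DNA inside nuclei) in liver after bile duct ligation, an operation that blocks bile outflow and leads to liver fibrosis. The groups were wild type and Mertk knockout, and both had the ligation. Mertk encodes a receptor tyrosine kinase with which macrophages take up dying cells, and the design asked how chromatin accessibility and expression differ between these genotypes. Each genotype had 1 ATAC library from nuclei of frozen liver. The number, sex, age and strain of the mice, the time after ligation and the deleted part of Mertk are not stated in the labels. With 1 library per genotype no difference below could be tested, and every comparison describes these libraries.

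Of the 34 receptor genes, 32 had at least 1 promoter or distal peak in the deposited annotation, out of 25458 genes with such a peak in either library. Their peaks numbered 200 of 72302 in the wild-type list and 407 of 106319 in the knockout list. Nr0b1, a repressor of steroidogenesis, and Nr2e3, a photoreceptor gene, had no peak in either library. A peak within about 1000 bp before to 100 bp after a start site was listed as a promoter peak, and the other assigned peaks, up to 199990 bp away or inside the gene, as distal. The lists hold positions with no height, so only the number, position and length of peaks could be compared.

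Nuclear receptors are transcription factors that bind short DNA elements built on the hexamer AGGTCA or, for most steroid receptors, a related hexamer. Many are switched by lipid-soluble ligands, and many pair with a retinoid X receptor (RXR). In liver they couple fasting, cholesterol load, glucocorticoid and thyroid hormone and the daily clock to metabolic gene expression. In macrophages the liver X receptors (LXR) and PPARs take part in the response to lipid from engulfed cells.

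The sequences shown first are those of start sites where the libraries differed within 1 gene or where a start was open in the knockout library alone. They are the 250 bases before the RefSeq start (build GRCm38, the assembly behind mm10), written 5′ to 3′ on the gene's strand, with CpG dinucleotides in capitals. For Pparg and Rxrg, the start with a peak in both libraries is followed by the start with a peak in the knockout library alone. The printed stretches of Esrrg and Rorb belong to starts with a knockout peak alone.
Pparg, upstream start, chr6:115360894-115361143 (+ strand): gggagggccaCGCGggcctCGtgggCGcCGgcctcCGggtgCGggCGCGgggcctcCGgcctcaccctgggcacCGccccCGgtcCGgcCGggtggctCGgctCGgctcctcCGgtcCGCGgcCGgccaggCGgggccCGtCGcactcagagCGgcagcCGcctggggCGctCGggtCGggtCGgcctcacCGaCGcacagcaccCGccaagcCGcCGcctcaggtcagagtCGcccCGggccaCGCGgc
Pparg, downstream start, chr6:115421816-115422065 (+ strand): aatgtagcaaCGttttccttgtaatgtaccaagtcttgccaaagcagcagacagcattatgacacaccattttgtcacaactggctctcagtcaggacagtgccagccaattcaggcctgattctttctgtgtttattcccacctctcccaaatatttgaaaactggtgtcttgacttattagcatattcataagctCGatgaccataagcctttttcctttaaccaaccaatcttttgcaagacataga
Rxrg, downstream start, chr1:167618015-167618264 (+ strand): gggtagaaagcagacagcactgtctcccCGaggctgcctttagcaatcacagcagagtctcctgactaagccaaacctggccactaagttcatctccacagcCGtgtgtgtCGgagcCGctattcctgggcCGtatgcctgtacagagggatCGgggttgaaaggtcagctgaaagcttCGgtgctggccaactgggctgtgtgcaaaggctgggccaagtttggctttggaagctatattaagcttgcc
Rxrg, upstream start, chr1:167598112-167598361 (+ strand): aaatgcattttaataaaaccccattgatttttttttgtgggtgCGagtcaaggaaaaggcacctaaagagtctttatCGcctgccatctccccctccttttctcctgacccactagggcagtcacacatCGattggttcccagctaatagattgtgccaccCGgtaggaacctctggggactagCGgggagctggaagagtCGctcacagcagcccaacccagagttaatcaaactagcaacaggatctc
Esrrg, last of its starts, chr1:187997577-187997826 (+ strand): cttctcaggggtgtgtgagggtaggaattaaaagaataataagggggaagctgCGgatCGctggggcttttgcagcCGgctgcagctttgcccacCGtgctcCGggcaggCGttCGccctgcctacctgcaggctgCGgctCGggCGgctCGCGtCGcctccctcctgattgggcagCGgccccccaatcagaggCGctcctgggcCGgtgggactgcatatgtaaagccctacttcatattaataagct
Rorb, upstream start, chr19:19111197-19111446 (- strand): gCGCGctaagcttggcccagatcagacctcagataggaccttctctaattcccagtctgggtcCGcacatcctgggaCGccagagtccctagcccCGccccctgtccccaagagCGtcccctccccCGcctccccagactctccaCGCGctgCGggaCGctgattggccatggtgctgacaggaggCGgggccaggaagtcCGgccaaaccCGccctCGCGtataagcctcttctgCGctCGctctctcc

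These stretches range from CpG-dense to CpG-poor. The upstream Pparg start holds 38 CpGs in the 250 bases and the downstream start 2. The downstream and upstream Rxrg starts hold 7 and 6, and the Esrrg and Rorb starts 16 and 18. The upstream Pparg start also holds AGGTCA from base -28 to -23, and the downstream Rxrg start AAAGGTCA from base -90 to -83, counting the start as 0.

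The libraries stood apart before any receptor was considered. The knockout list had 1.47 times as many peaks, with 83996145 fragments in its 5339 called nuclei against 40858512 in 5828 wild-type nuclei. Mean peak widths were 859 and 855 bp. The libraries had 44 called barcodes in common. Hepatocyte markers had 27 wild-type peaks (22.0 kb) and 123 knockout peaks (102.9 kb), with 7 of 15 markers, among them Alb, Cps1 and Cyp3a11, listed at 0 in the wild type. Some defining markers of the hepatocyte, the main cell type of the labelled tissue, were thus absent from the wild-type peak list. Ttr (4 wild-type and 3 knockout peaks) and Ass1 (7 and 5) of the same list went the other way. Stellate and fibroblast markers had 13 and 66 peaks, with 3 of 9 at 0 in the wild type. Endothelial markers had 58 and 114 peaks, and macrophage and Kupffer markers 74 and 61. These shifts ran alongside the receptor differences below, and their part in them was not tested. A peak list pools all nuclei, so fewer nuclei of a type and less open chromatin per nucleus cannot be told apart.

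Receptor genes had 2.04 times as many peaks in the knockout as in the wild-type library, 407 against 200, and 344.2 against 170.0 kb of peak length. More knockout than wild-type peaks were found at 28 of the 32 genes, against 60.3% of all genes. Fewer were found at 1, Nr1h3, against 16.2%, and equal numbers at 3, Nr2f6, Rxrb and Esrra, against 23.5%. Nr2e1, Rorb and Pgr, 3 receptors in all, had knockout peaks but no wild-type peak, against 13% of all genes. A few long genes took a large share of the surplus. Rora, Esrrg, Thrb and Esr1, each with at least 20 more knockout peaks, made up 105 of the 208 extra assignments of a peak to a receptor gene. A surplus of at least 20 was found at 0.275% of all genes. That share was not matched for length, and these 4 genes are 381 to 735 kb long. The limit of 20 equals the surplus of Thrb and of Esr1. Without Rora the receptors had 178 and 341 peaks, and without the 10 genes longer than 100 kb they had 94 and 166.

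**Figure D1:**
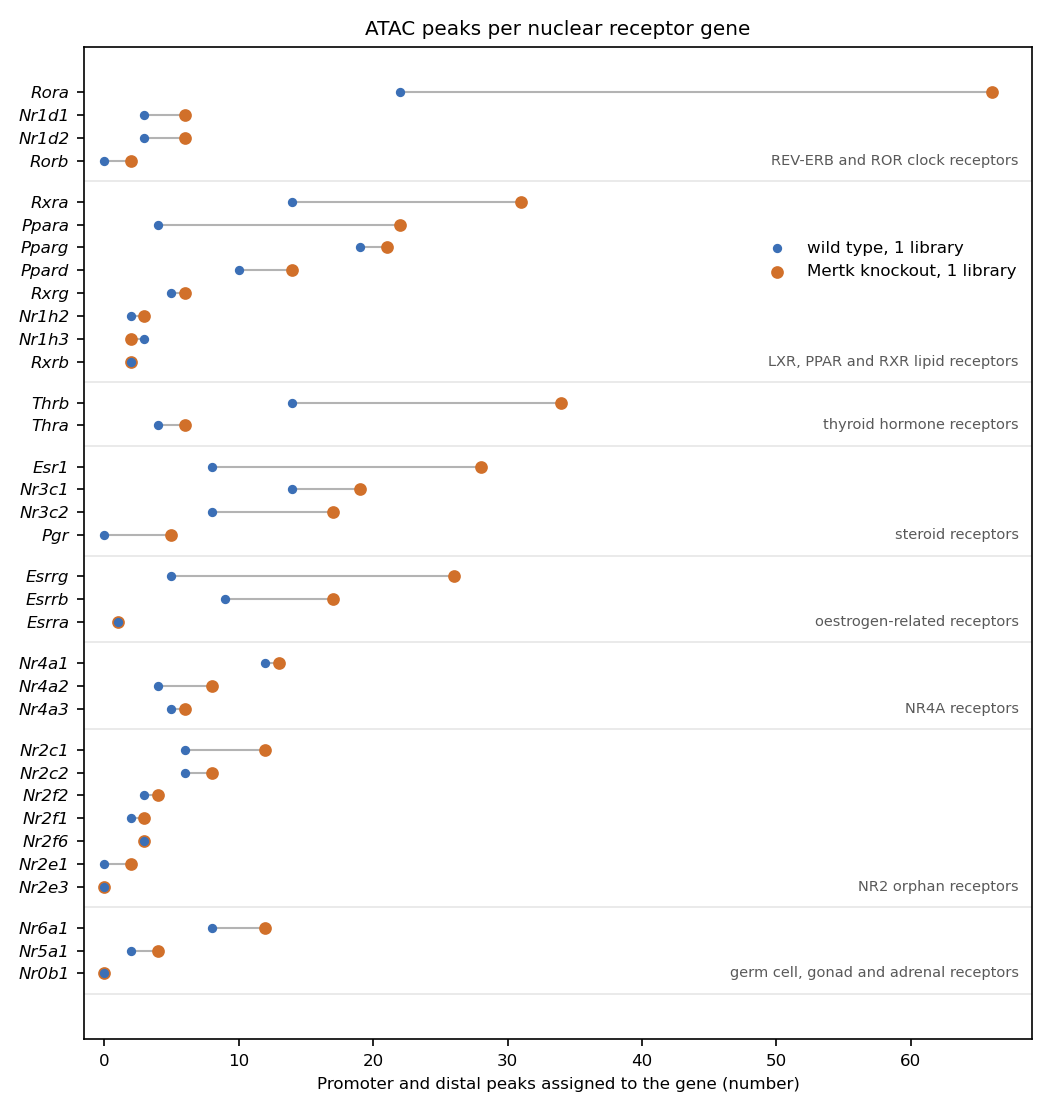
Number of promoter and distal peaks assigned to each receptor gene (horizontal axis) in the wild-type (blue) and knockout (orange) library, by family, with 1 library per genotype and no error bars. Rora reaches 66 knockout peaks against 22, while Nr4a1, Nr2f6 and Rxrb lie at nearly the same number in both libraries.

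To set the genes beside the rest of the genome, the summed peak length of a gene (its accessible length) was compared as a log2 ratio of knockout over wild type with 1 kb added to both sides, for genes with a mean of at least 2 kb. The ratio was centred on the median of 14692 such genes, 0.39. Ratios of 1 or more were counted as higher in the knockout library and ratios of -1 or less as lower, a limit of size with no test behind it. Of the 34 receptors 27 reached the minimum, 2 had no peak and 5 fell short (Nr1h2, Nr2e1, Rxrb, Esrra and Rorb). By the rule 5 of 27 were higher in the knockout library, Pgr, Ppara, Esrrg, Esr1 and Rora, against 10.3% of all genes, and 0 were lower, against 4.08%. Pgr, at 0 kb in the wild type, reached the minimum only through its knockout peaks, so its call follows from the filter, and with a minimum of 4 kb 4 receptors were higher. The other 22 lay between. The receptors' median was 0.35, and 18 lay above the median gene. Without centring 8 were higher, against 19.6%, and 0 lower, against 1.34%; the added genes were Thrb, Rxra and Nr3c2. Of all genes past the rule 71.6% were higher with centring and 93.6% without. The rule admits few genes with short accessible length, so these counts speak for the 27 genes and not for all 34.

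**Figure D2:**
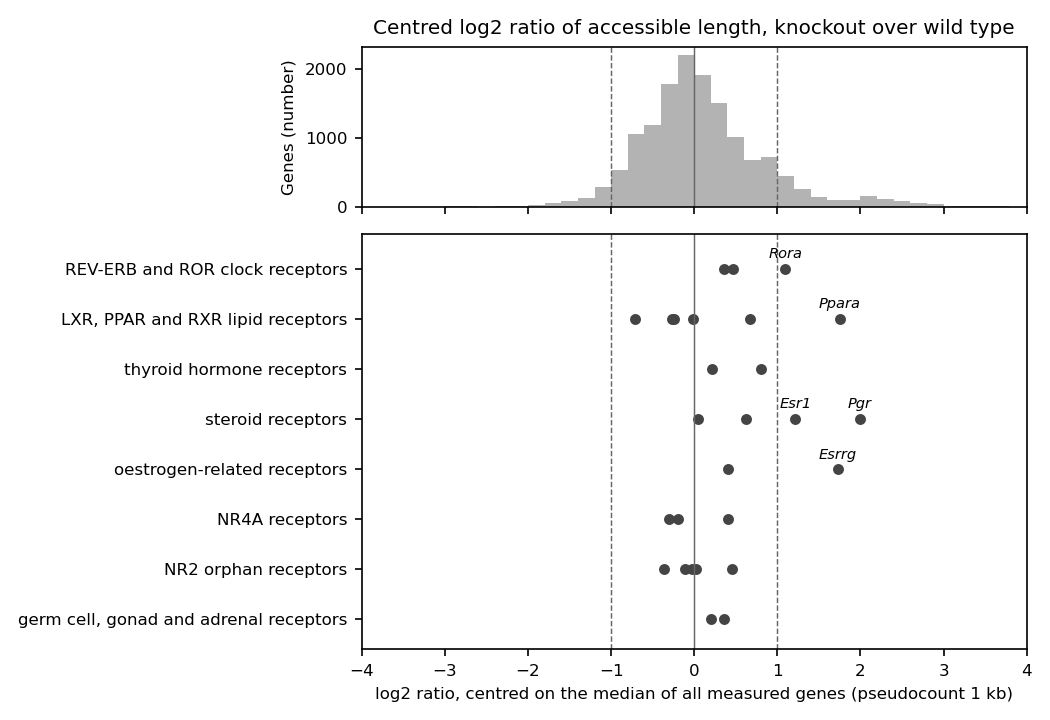
Upper panel, histogram of the centred log2 ratio of accessible length (knockout over wild type) for all 14692 measured genes, with values beyond 4 drawn at the edge. Lower panel, the 27 measured receptors by family, 1 point per gene; dashed lines mark the size rule, and the 5 genes at or past 1 are named while none lies at or below -1.

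Gene length went with these ratios. The 9 measured receptors longer than 100 kb had a median of 0.63 and 3 higher, beside a median of 0.14 and 15.2% higher among 2062 genes of that length. The 12 of 20 to 100 kb had 0.28 and 2 higher, beside 0.00 and 9.35% of 5595 genes. These 2 were Ppara and Pgr, and the call of Pgr follows from the length filter. The 6 shorter ones had -0.04 and 0 higher, beside -0.03 and 8.79% of 5155 genes.

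Among the fatty acid sensors, Ppara stood out while Ppard and Pparg did not. Ppara, which drives fatty acid oxidation in the fasted liver (chromosome 15, 85734910 to 85806851), had 4 wild-type peaks (3.30 kb) and 22 knockout peaks (17.97 kb), so that its ratio was 1.75. All 4 wild-type peaks were shared, meaning that they overlapped a knockout peak by at least 1 bp. The 18 peaks of the knockout library alone were spread on both sides of the start, 9 before it and 9 after it within the gene. Of the 22 knockout peaks 9 were also assigned to a neighbour, 5 to Cdpf1 and 4 to Lncppara, and over peaks assigned to Ppara alone its ratio was 1.09. Ppard, a broadly expressed relative (chromosome 17), had 10 and 14 peaks and a ratio of -0.01.

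Pparg, the regulator of fat cell formation that macrophages also express, had almost equal totals at different places. It lies on chromosome 6 (115360879 to 115490404) and had 19 wild-type peaks (16.2 kb) and 21 knockout peaks (17.9 kb), a ratio of -0.26. Of these 10 were shared, 9 were found in the wild type alone and 11 in the knockout alone. The wild-type-alone peaks lay mostly before the upstream start, 5 of 9, or between it and the downstream start, 3 of 9. The knockout-alone peaks included both promoter peaks at the downstream start, at 115420662 to 115421409 and 115421536 to 115422377, where the wild type had none. That start is the CpG-poor one printed above and belongs to the isoform best known from fat cells. The upstream, CpG-dense start had a promoter peak in both libraries, at 115360727 to 115361520 and 115360676 to 115361505.

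The oxysterol sensors LXR-beta and LXR-alpha, which raise cholesterol export genes, had few peaks. Nr1h3, the LXR-alpha gene that is abundant in liver and macrophages (chromosome 2, 91184061 to 91202829), had 3 wild-type peaks (2.49 kb) and 2 knockout peaks (1.79 kb), and its ratio of -0.72 was the lowest of the set. The difference rests on 1 wild-type peak at the gene's 3′ end, which was also assigned to Madd. Nr1h2 had 2 and 3 peaks.

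Of the RXR genes, the common partners of many receptors, Rxra carried the surplus. Rxra, the main RXR of hepatocytes (chromosome 2, 27676445 to 27763319), had 14 wild-type peaks (12.2 kb) and 31 knockout peaks (26.7 kb), a ratio of 0.67. Its 21 knockout-alone peaks lay before the first start (7), between the starts (4), further inside the gene (6) and past its end (4). Rxrb had 2 and 2 peaks. Rxrg, known mainly from muscle and brain, had 5 and 6 and a ratio of -0.24, and a promoter peak at its upstream start, at 167598094 to 167599001 on chromosome 1, in the knockout library alone.

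Receptors of the daily clock had more knockout peaks at each gene. Rora, an activator that competes with the REV-ERBs at shared elements (chromosome 9, 68653404 to 69388246), had 22 wild-type peaks (19.1 kb) and 66 knockout peaks (55.3 kb), a ratio of 1.09. With peaks of at least 800 bp the ratio of Rora was 0.95, under the size rule. Rora had the most peaks of the set in either library. Of the wild-type peaks 20 were shared, and all 46 knockout-alone peaks lay within the gene after the start. Counted over the gene body, Rora had 2.99 wild-type and 8.98 knockout peaks per 100 kb. The REV-ERB repressor genes Nr1d1 and Nr1d2 each had 3 and 6 peaks, with ratios of 0.35 and 0.46, and all their wild-type peaks were shared. Rorb, a gene of retina and brain, had 0 and 2 peaks, of which 1 lay at its upstream start, at 19110889 to 19111762 on chromosome 19.

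The thyroid hormone receptors differed from each other. Thrb, the main form in hepatocytes (chromosome 14, 17659225 to 18040097), had 14 wild-type peaks (11.8 kb) and 34 knockout peaks (28.5 kb), a ratio of 0.81. Of its 24 knockout-alone peaks 21 lay between its RefSeq starts. Thra, the main form in heart and bone, had 4 and 6 peaks and a ratio of 0.21.

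Among the steroid receptors of the set Esr1 passed the size rule, and Pgr did so only through the length filter. Esr2, a sex hormone receptor gene outside the set, had 6 and 9 peaks and a ratio of 0.25. Esr1, the oestrogen receptor alpha gene of hepatocytes (chromosome 10, 4611989 to 5005633), had 8 wild-type peaks (7.06 kb) and 28 knockout peaks (23.6 kb), a ratio of 1.22. Its 22 knockout-alone peaks lay before the first start (5), between the starts (8) and after the last (9), and 2 wild-type peaks, both also assigned to Syne1, had no knockout partner. Pgr, the progesterone receptor gene (chromosome 9, 8898900 to 8968611), was listed at 0 in the wild-type library and had 5 distal peaks (4.22 kb) in the knockout library. No promoter peak was listed for Pgr in either library, and its ratio of 1.99 depends on the added 1 kb.

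The corticoid receptors were nearer to the median gene than Esr1. Nr3c1, the glucocorticoid receptor gene (chromosome 18, 39410545 to 39519421), had 14 peaks (11.3 kb) and 19 (15.7 kb), a ratio of 0.05. Promoter peaks numbered 2 in the wild-type list and 3 in the knockout list. Nr3c2, the mineralocorticoid receptor gene, had 8 and 17 peaks and a ratio of 0.63, and counted over peaks assigned to no other gene it passed the size rule at 1.05.

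The oestrogen-related receptors, orphan regulators of mitochondrial genes, ranged from no difference in number to a large one. Esrrg (chromosome 1, 187608510 to 188214885) had 5 wild-type peaks (4.53 kb) and 26 knockout peaks (23.0 kb), a ratio of 1.72. Of its 22 knockout-alone peaks 14 lay between its first and last RefSeq starts. Many lay over non-coding neighbours: 17 knockout peaks were also assigned to another gene, 11 of them to Gm36388. Esrrb had 9 and 17 peaks and a ratio of 0.41, with all 9 wild-type peaks shared. Esrra had 1 promoter peak in each library.

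Of the NR4A genes, immediate early genes induced in macrophages and other cells, Nr4a1 and Nr4a3 had nearly equal peak numbers in both libraries and Nr4a2 had more in the knockout. Nr4a1 (chromosome 15, 101253902 to 101274795) had 12 wild-type peaks (9.96 kb) and 13 knockout peaks (10.7 kb), of which 10 were shared, and a ratio of -0.30. Nr4a3 had 5 and 6 peaks (-0.19). Nr4a2 had 4 and 8 (0.41), with a promoter peak inside the gene in the knockout library alone. The set of 3 had 21 and 27 peaks, beside 28 and 80 for the clock receptors and 15 and 44 for the oestrogen-related receptors. Single long genes held much of the latter counts, Rora (735 kb) 22 and 66 and Esrrg (606 kb) 5 and 26. The NR4A genes are 17.2 to 41.4 kb long.

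None of the 5 measured NR2 orphan receptors passed the size rule, and their ratios ran from -0.36 to 0.45. Nr2f1 and Nr2f2, the COUP-TF genes of mesenchymal and venous endothelial cells, had ratios of 0.02 and -0.11. Nr2f1 had 2 wild-type and 3 knockout peaks, and Nr2f2 had 3 and 4. Nr2f6 (chromosome 8, 71374118 to 71381967) had 3 and 3 peaks (2.62 and 2.69 kb), all shared, and a ratio of -0.36. The testicular receptor genes Nr2c1 and Nr2c2 had 6 and 12 (0.45) and 6 and 8 (-0.03), and Nr2e1, a neural stem cell gene, 0 and 2. Of the germ cell, gonad and adrenal receptors, Nr6a1 had 8 and 12 peaks (0.20) and its neighbour Nr5a1 had 2 and 4 (0.35), with no promoter peak in either library. Nr5a1 and Nr6a1 share 1 peak in each library.

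**Figure D3:**
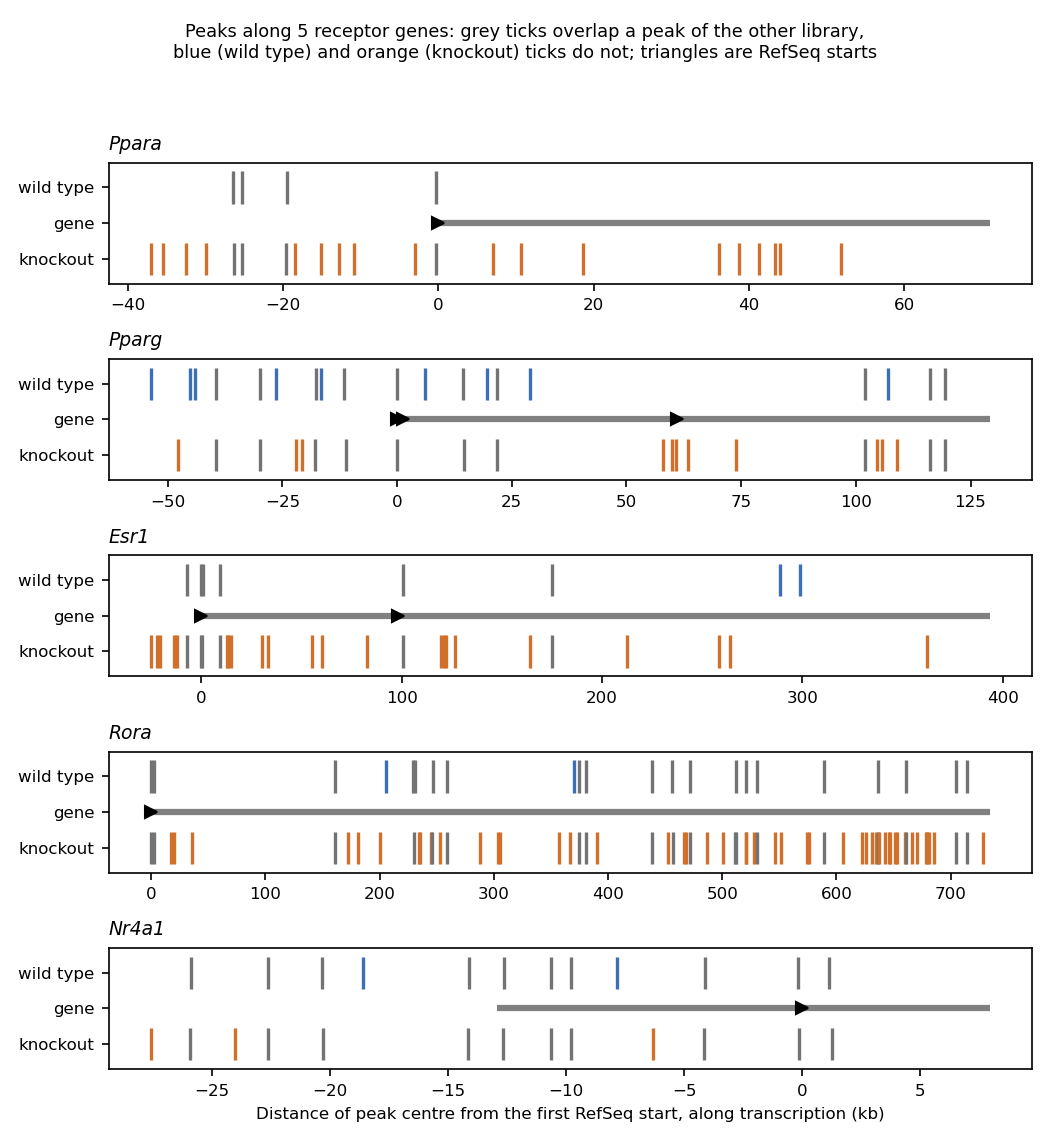
Peak centres along 5 receptor genes, in kb from the first start in the RefSeq table, with the wild-type row above and the knockout row below the gene (grey bar, triangles for starts). Grey ticks overlap a peak of the other library and coloured ticks do not: Ppara has 18 knockout ticks without partner and no wild-type one, Pparg has them in both rows, and Nr4a1 is largely grey.

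Promoter peaks were more often shared between the libraries than distal peaks, at the receptors as over all genes. Of the 32 receptors with a peak, 27 had a promoter peak listed in both libraries, against 56.2% of all genes with a peak. In the knockout library alone it was listed for 2, Esrrg and Rorb, against 10.6%, and in the wild type alone for 0, against 2.19%. Nr0b1, Nr2e1, Nr2e3, Nr5a1 and Pgr had none. All 34 wild-type promoter peaks overlapped a knockout peak (100%, exact 95% interval 89.7% to 100%, counting error only), while 6.49% of all wild-type promoter peaks had no partner, and 35 of 44 knockout promoter peaks overlapped a wild-type one (79.5%, 64.7% to 90.2%), while 21.1% of all knockout promoter peaks had no partner. Matched promoter peaks lay at almost the same place. Over 34 pairs in 27 genes the left edges differed by a median of 35 bp (0 to 211) and the right edges by 26 bp (at most 175). Median widths were 840.5 bp in the wild-type and 864.5 bp in the knockout library, and the knockout peak was the wider in 22 pairs and the narrower in 12.

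The Esrrg promoter call turns on the distance limit. Its knockout promoter peak at 187609127 to 187610011 is listed 98 bp from a start and overlaps a wild-type peak at 187609866 to 187610690, listed at 837 bp and therefore as distal. Its other knockout promoter peak, at 187997402 to 187998260, had no wild-type partner. The 9 knockout promoter peaks without partner belonged to Pparg (2) and to Rxra, Rxrg, Nr3c1, Nr4a2, Esrrg, Rora and Rorb (1 each).

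RefSeq lists 46 start windows (250 bp before to 50 bp after a start) for 31 of the receptors. A peak covered 29 in both libraries, 4 in the knockout alone (Pparg, Rxrg, Esrrg and Rorb), 0 in the wild type alone and 13 in neither. Over 32851 windows of all genes the shares were 40.2%, 8.33%, 1.73% and 49.8%. The median number of CpGs was 23 in receptor windows open in both libraries, 16 in the 4 open in the knockout alone and 6 in those open in neither, beside 21, 7 and 3 over all genes. AGGTCA on either strand was found in 8 receptor windows (17.4%), beside 16.3% of all windows. AAAGGTCA, the NR4A element, which contains AGGTCA, was found in 2 (4.35%, beside 1.51%), the E-box CACGTG in 1 (2.17%, beside 7.15%) and the cAMP element TGACGTCA in 2 (4.35%, beside 1.79%). Direct repeats of AGGTCA with 1 or 4 bases between and the palindromic glucocorticoid element were found in 0 receptor windows, and in 0.0396%, 0.0152% and 0.00913% of all windows.

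Distal peaks carried the surplus. Of 166 wild-type distal peaks of the receptors 117 were shared (70.5%, 62.9% to 77.3%), beside 67.7% of 58700 distal peaks of all genes. Of 363 knockout distal peaks 116 were shared (32.0%, 27.2% to 37.0%), beside 44.3% of 89948. Found in the knockout alone were thus 247 receptor distal peaks, against a background of 55.7% of knockout distal peaks, and in the wild type alone 49, against 32.3%. Peaks of 1 gene are not independent, and this difference from all genes was not tested. Shared and knockout-alone distal peaks were of like width, 849 and 846 bp on average. Beyond 50 kb from a start lay 27 of 167 wild-type assignments (16.2%) and 79 of 365 knockout ones (21.6%), beside 13.4% and 14.1% over all genes.

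**Figure D4:**
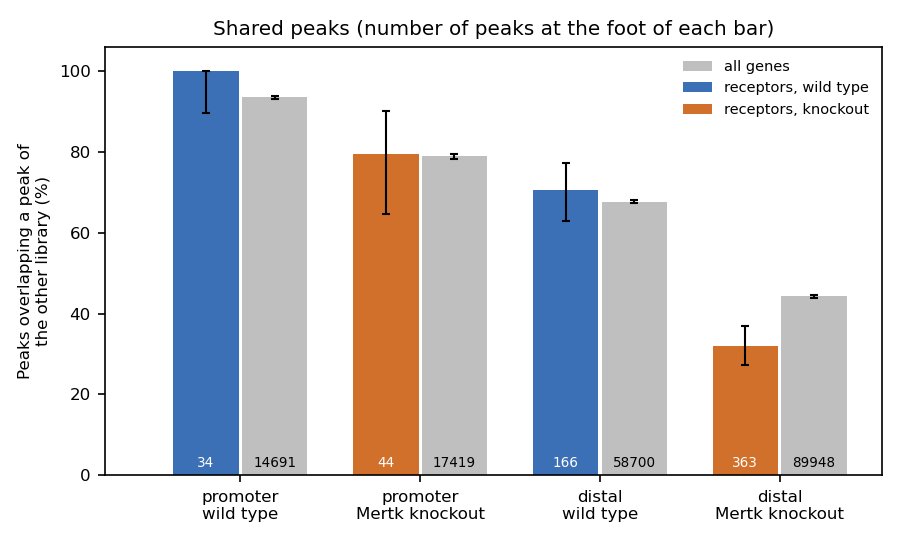
Share (percent) of promoter and distal peaks with a partner in the opposite library (1 bp of overlap or more), for receptor genes (blue, wild type; orange, knockout) and all genes (grey); bars carry exact 95% intervals for counting error only and the number of peaks at their foot. Receptor distal peaks of the knockout library are at 32.0%, beside 44.3% for all genes.

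The genes that work with or respond to these receptors were counted from fixed lists, some of which share members. Of the 66 measured genes in the coregulator, clock and target lists together 7 were higher in the knockout library, against 10.3% of all genes, and 0 lower, against 4.08%, with a median of 0.31. Among coregulators 1 of 13 was higher, Ppargc1a, a coactivator of PPARs and oestrogen-related receptors, with 2 and 20 peaks (2.38). Ppargc1a had 1.66 kb in the wild type and reached the length minimum through its knockout peaks. Tbl1xr1, which encodes a subunit of corepressor complexes, had 6 and 12 peaks (0.62), and the list's median was 0.09. Of clock genes 0 of 13 were higher, with a median of 0.46. The largest ratios were at Cry2 (3 and 9 peaks, 0.78), Per2 (4 and 11, 0.73) and Nfil3 (5 and 11, 0.62).

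Target genes of the lipid receptors included metabolic enzymes. Over all measured genes 10.3% were higher, so 1 higher gene in a list of 8, 10 or 11 is near that share. Of PPAR targets 3 of 13 were higher, among them Acadm (1 and 5 peaks, 1.14), which oxidises medium-chain fatty acids, and Pdk4 (4 and 14, 1.06), which restrains glucose oxidation. The list's median was 0.13. Of LXR targets 1 of 10 was higher, Lpcat3, a phospholipid remodelling enzyme (3 and 12, 1.20), with a median of 0.33. The sterol transporter Abcg8 (3 and 10, 0.96) and the lipase Lpl (7 and 16, 0.75) followed. Of glucocorticoid receptor targets 1 of 11 was higher, the gluconeogenic Pck1 (1 and 9, 1.82), followed by Cdkn1a (1 and 5, 0.98) and Tat (3 and 9, 0.92). Pck1 and Tat are also in the hepatocyte marker list. Of thyroid hormone targets 1 of 8 was higher, Dio1, which converts thyroid hormone (1 and 5, 1.03), with Me1 (4 and 13, 0.86) and Thrsp (1 and 4, 0.63) next. Acadm, Pck1 and Dio1 had under 2 kb in the wild type and reached the length minimum through knockout peaks.

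The remaining nuclear receptors, 14 genes that include the bile acid sensors, were measured in the same way. Of 11 above the length minimum 3 were higher, against 10.3% of all genes: Hnf4a (1 and 7 peaks, 1.31), Nr1h4 (6 and 20, 1.19) and Nr5a2 (13 and 38, 1.12). The median was 0.26. A promoter peak was found in the knockout library alone for 6 of these 14, against 10.6% of all genes with a peak. It was so for 2 of the 32 receptors of the main set that had a peak, and this difference was not tested. The hepatocyte markers had 11 of 14 higher and a median of 1.59, and the stellate and fibroblast markers 6 of 7 and 1.85, against 10.3% of all genes. Alb, Cps1, Serpina1a, Cyp3a11, Cyp2e1, Ahsg and the stellate marker Des, at 0 kb in the wild type, reached the minimum only through knockout peaks. Their calls follow from the filter, as for Pgr. Apob, Pck1, G6pc, Hamp, Col1a1, Col1a2, Pdgfrb, Reln and the receptor Hnf4a had under 2 kb in the wild type. They too passed the minimum through the knockout library. Of the called markers only Apoa1 (5.17 kb) and Dcn (3.2 kb) had more than 2 kb in the wild type. The counts and medians of both lists thus follow largely from the filter. The endothelial markers had 1 of 7 higher, against 10.3% of all genes, and a median of 0.51. The macrophage and Kupffer markers had 0 of 8 higher, 3 lower, against 4.08% of all genes, and a median of -0.58.

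**Figure D5:**
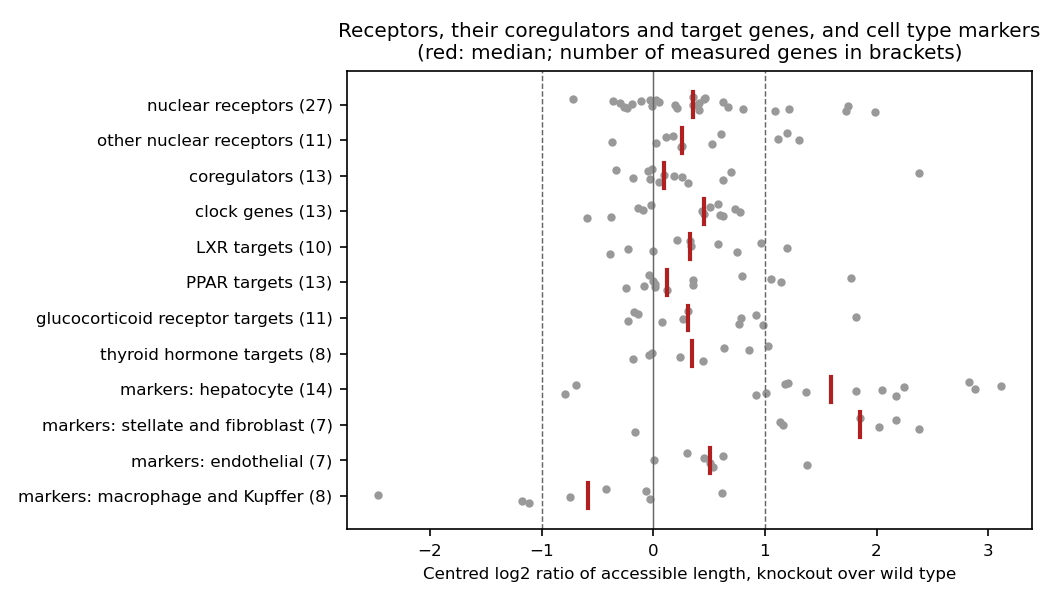
Centred log2 ratio of accessible length (knockout over wild type) for measured genes of each list, 1 grey point per gene, with the median in red and the number of genes in brackets. Receptors and their partner and target lists have medians between 0.09 and 0.46. The endothelial markers (0.51) lie close above, the hepatocyte (1.59) and stellate (1.85) markers further up and the macrophage and Kupffer markers (-0.58) below. Most hepatocyte and stellate markers past the size rule had 0 kb or under 2 kb in the wild type. They reached the length minimum through knockout peaks, so those 2 medians follow largely from the filter.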

How the data were processed

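Open chromatin of nuclei from bile duct ligated mouse liver was read with the 10x Genomics Multiome assay, with 1 ATAC and 1 RNA library per genotype. Per the file headers, cellranger-arc 2.0.2 was run by the authors on each library separately, with mm10 as genome. Settings of the peak caller were not found in the headers. The deposited peak annotation gives positions, assigned genes and distances. Tables deposited for each library give counts of UMIs and fragments per barcode, unnormalized and used for depth only. Expression of the receptors was not analysed here, and no doublet caller was run.

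Only the numbered and sex chromosomes were used, so peaks on other contigs were dropped, 43 from the wild-type list and 44 from the knockout list, none of a receptor. Starts were converted to positions counted from 1. Accessible length, its ratio (pseudocount 1 kb, minimum 2 kb, centred) and overlap (1 bp) were computed with Python 3.11.15, numpy 2.4.6, pandas 2.3.3 and scipy 1.17.1, and drawn with matplotlib 3.10.9. Peak sets called separately move with how much was called, 61.8 Mb in the wild-type and 91.3 Mb in the knockout library. The ratio was tested on simulated peaks and the overlaps were checked against bedtools. Gene positions and start sequences are from RefSeq for GRCm38. Coordinates were found for all 34 genes and start windows for 31.

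With 1 library per genotype no test between genotypes was possible, and exact (Clopper-Pearson) 95% intervals cover counting error only. All members are named. Positions are given for the 4 highest and 4 lowest ratios and for 1-library promoters, as well as where the text needs them, and the 3 genes of largest absolute ratio are named per list, except that some are not reported here. The receptors and lists were chosen with earlier results of these data known.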

Additional observations from a re-analysis of the deposited data

How the results depend on the processing

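No paired analysis was possible because each genotype has 1 ATAC library, so none was left out. The cause of a shift was not tested unless the setting gives it.

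The 5 higher receptors became 8 without centring, where 19.6% of all genes were higher, and 3 with a size rule of 1.5 (5.09%). They became 3 with peaks of at least 800 bp (10.0%) and 0 with promoter peaks only (2.31%), where 1 receptor, Rora, reached the length minimum. Under the other 8 alternatives 4 to 6 were higher, beside 7.13% to 13.6% of all genes. Under all 12 none was lower. The receptors' median of 0.35 became 0.40 and 0.26 with pseudocounts of 0.5 and 2 kb, 0.30 with no length minimum, 0.39 with a minimum of 4 kb, 0.75 without centring, 0.29 and 0.43 with promoter or distal peaks only, 0.45 with peaks assigned to 1 gene, 0.32 by peak number, 0.31 with peaks of at least 800 bp and 0.23 within 50 kb. Of 276 ratios of single receptors under these alternatives, 268 kept their side of the size rule and 0 called ratios changed sign. Over all genes, the share of genes past the rule that were higher was 71.6% with centring and 93.6% without.

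The 7 higher of 66 genes of the coregulator, clock and target lists became 4 with a pseudocount of 2 kb (7.13% of all genes higher). They became 14 of 84 with no length minimum (11.3%), 4 of 49 with a minimum of 4 kb (8.58%) and 21 without centring (19.6%). With a size rule of 1.5 they became 3 (5.09%), and with promoter peaks only 0 (2.31%). Their median of 0.31 became 0.29 and 0.31 with pseudocounts of 0.5 and 2 kb, 0.34 and 0.31 with no minimum and 4 kb, 0.70 without centring, 0.081 and 0.35 with promoter or distal peaks only, 0.21 with peaks assigned to 1 gene, 0.30 by peak number, 0.29 with peaks of at least 800 bp and 0.33 within 50 kb. With promoter peaks only, 1 clock gene and 1 PPAR target reached the length minimum, with ratios of -0.082 and -0.19, so these values are of single genes and not of the lists, and the 0.081 rests on 6 genes.

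With promoter peaks only, 100% of wild-type and 79.5% of knockout receptor peaks were shared, in place of 75.5% and 37.1%, and the knockout surplus was 1.29 times in number and in length. With distal peaks only, 32.0% of knockout peaks were shared. Without the genes longer than 100 kb, 43.4% of knockout promoter and distal peaks together were shared, in place of 37.1%. Over all genes 49.5% of such peaks were. The setting without long genes was chosen after seeing the data, as was that without Rora. Receptors with a knockout promoter peak alone numbered 1, not 2, over the RefSeq windows and 6 with peaks of at least 800 bp, which also left 8, not 5, with none. Motifs in whole or central peak sequence were not run, since no genome sequence was used here. Peak lists without heights allow no stricter threshold by signal. The knockout library had more fragments in called nuclei, and 46.0% of them lay in its own peaks, against 33.7% in the wild type. Both limit what the absence of a wild-type peak can show.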

Other observations

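Wild-type peaks with no knockout partner made up 49 assignments at 20 receptor genes. All were distal, and their share of receptor distal peaks was near that of all genes: 70.5% of wild-type distal peaks were shared at the receptors and 67.7% over all genes. Pparg had the most, 9, and Nr3c1, Ppard, Rxra and Thrb had 4 each. Of the receptors with at least 5 wild-type peaks, Esrrb was the 1 gene with no wild-type-alone peak.

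Counted over the gene body, the density of peaks differed more between receptors than between libraries for the NR4A genes. Nr4a1 had 33.5 peaks per 100 kb in each library and Nr4a3 7.25 in each. Ppara had a wild-type density of 1.39 and a knockout density of 13.9, Esr1 1.78 and 5.59, and Esrrg 0.825 and 3.96. Nr1d1 and Thra, which overlap at their ends, shared 1 knockout peak and no wild-type peak.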
